A study of Mus musculus with 6 samples.

Results

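Myelin and oligodendrocyte lineage genes were followed across 6 microarrays of mouse spinal cord. The list names 38 genes, and the platform annotation gave 36 of them a probe set carrying that 1 gene symbol. All 36 lay above the filter on low signal, among 12614 named genes in all, and they were covered by 75 probe sets, of which 67 were above the filter. Trf and Enpp2 were not analysed here. The genes were divided into 29 that mark mature, myelinating oligodendrocytes, of which 27 were measured, and 9 that mark precursors, premyelinating cells or the lineage as a whole, all of them measured.

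The tissue was the first lumbar segment (L1) of male SCID mice, which lack functional B and T lymphocytes, aged 9 weeks at the start and 15 weeks when sampled, 6 weeks after injection. In the N-inv group, a model of neural invasion, Capan-1 cells were injected into the left sciatic nerve. Capan-1 is a human pancreatic cancer line. The SC group was a subcutaneous model, for which the labels do not restate the cells used, and the PBS group was the vehicle control. Both serve as controls in the study. Each group had 2 arrays, numbered 1 and 2. Nothing in the labels ties each array to an animal of its own, so the p-values reflect array-to-array spread that may be partly technical.

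Oligodendrocytes wrap axons of the central nervous system in myelin, a stack of membrane rich in galactolipids and in a small set of abundant proteins. They arise from precursors that carry the receptor Pdgfra and the proteoglycan Cspg4 (NG2), pass through a premyelinating stage marked by Gpr17 and Bcas1, and switch on the myelin genes under the transcription factors Sox10 and Myrf. Schwann cells make the myelin of peripheral nerve and express other genes, such as Pmp2, beside some that are shared. In bulk tissue, fewer cells of a type and less RNA per cell cannot be told apart.

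Values below are probe set intensities after each array was scaled to a common median of 255.8, and each gene is read from the brightest of its probe sets. An intensity also depends on the probe, so levels of different genes are not compared. Differences are on the scale log2(intensity + 25.6), given with the standard error (SE) of limma's model, 2 arrays a group. That scale understates the change of dim genes. The 3 comparisons are N-inv minus PBS, N-inv minus SC and SC minus PBS, and they share arrays with one another.

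The SC arrays stood apart from the other 4 and were unlike each other. SC 1 and SC 2 correlated at 0.953, below every other pair of arrays, and the median correlation of an array with the rest was 0.955 for SC 1 and 0.961 for SC 2, against 0.965 to 0.966 for the N-inv and PBS arrays. The signal of the 3' probes over that of the 5' probes, a measure of RNA length, for Actb was 3.32 and 3.42 on the N-inv arrays, 3.81 and 4.70 on the SC arrays and 3.05 and 3.57 on the PBS arrays. Xist, the RNA of the inactive X chromosome, read 13040 on SC 2 and 138.3 to 228.1 on the other 5 arrays, although all mice are labelled male. Eif2s3y, a gene of the Y chromosome, read 3147 on SC 2, 1342 on SC 1 and 2365 to 2647 on the others. The Xist reading of SC 2 thus goes against its male label, while its Eif2s3y reading was the highest of the 6 arrays. The main counts at an unadjusted p under 0.05 and most larger differences of single genes are also given without SC 2. The tissue label fits the markers, since 10 of the 36 genes averaged over 20000, where 294 of all 12614 named genes did. The brightest probe set of Mbp, a main protein of compact myelin, was exceeded on average by 1 of 27022 probe sets. Both statements rank intensities across probes, so they are only a rough guide.

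In none of the comparisons did a gene of the list pass an adjusted p of 0.05 (limma, Benjamini-Hochberg over all 27022 probe sets), and over all probe sets 0.00% passed. The smallest adjusted p among the 36 genes was 1 for N-inv minus PBS, 0.445 for N-inv minus SC and 0.507 for SC minus PBS. At an unadjusted p under 0.05, 0 of 36 stood out in N-inv minus PBS, where 3.36% of all named genes did, 2.19% higher and 1.17% lower in N-inv. In SC minus PBS there were 10, or 27.8%, against a background of 6.70% of all named genes. Of these, 9 were lower in SC, a direction with a background of 4.47%, and 1 was higher, a direction with 2.23%. In N-inv minus SC there were 13, or 36.1%, against 8.17% of all named genes, with 12 higher in N-inv (background 6.08%) and 1 lower (2.09%).

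These counts depended on single arrays. Without SC 2, the count in N-inv minus SC was 6 of 36, or 16.7%, close to the 15.4% of all named genes in that fit, and the count in SC minus PBS was 7, or 19.4%, against 12.2%. Without SC 1 the counts were 18 of 36 against 14.6% of all named genes, and 17 of 36 against 14.7%. Leaving out N-inv 1 gave 5 in N-inv minus SC, or 13.9%, against 4.13% of all named genes, and leaving out N-inv 2 gave 6, or 16.7%, against 4.55%. Leaving out PBS 1 gave 4 in SC minus PBS, or 11.1%, against 3.81%. With 1 SC array left out, that group has 1 array, and the spread in the fit comes from the N-inv and PBS arrays alone. Its p-values then do not measure the spread among SC arrays. The median over all named genes in SC minus PBS also moved, to 0.08 without SC 1 and -0.11 without SC 2. Part of each gene's difference in those fits is thus shared by the whole array.

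By direction alone, 31 of the 36 genes were lower in SC than in PBS and 5 higher, where 53.2% of all named genes were lower and 46.8% higher. In N-inv minus SC, 30 were higher in N-inv and 6 lower, against 60.5% and 39.5% of all named genes. In N-inv minus PBS, 17 were higher and 19 lower, against 59.9% and 40.1%. The median log2 difference of the 27 mature genes was -0.03 in N-inv minus PBS, 0.30 in N-inv minus SC and -0.26 in SC minus PBS. For the 9 precursor and lineage genes it was 0.06, 0.23 and -0.20, and for all named genes 0.04, 0.06 and -0.02. Both SC arrays lay below all 4 others for 19 of the 36 genes, or 52.8%, against 13.7% of all named genes. SC 1 alone lay below all 4 for 25 genes, but it did so for 46% of all named genes. SC 2 alone did so for 23 genes, against 23.3% of all.

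**Figure D1:**
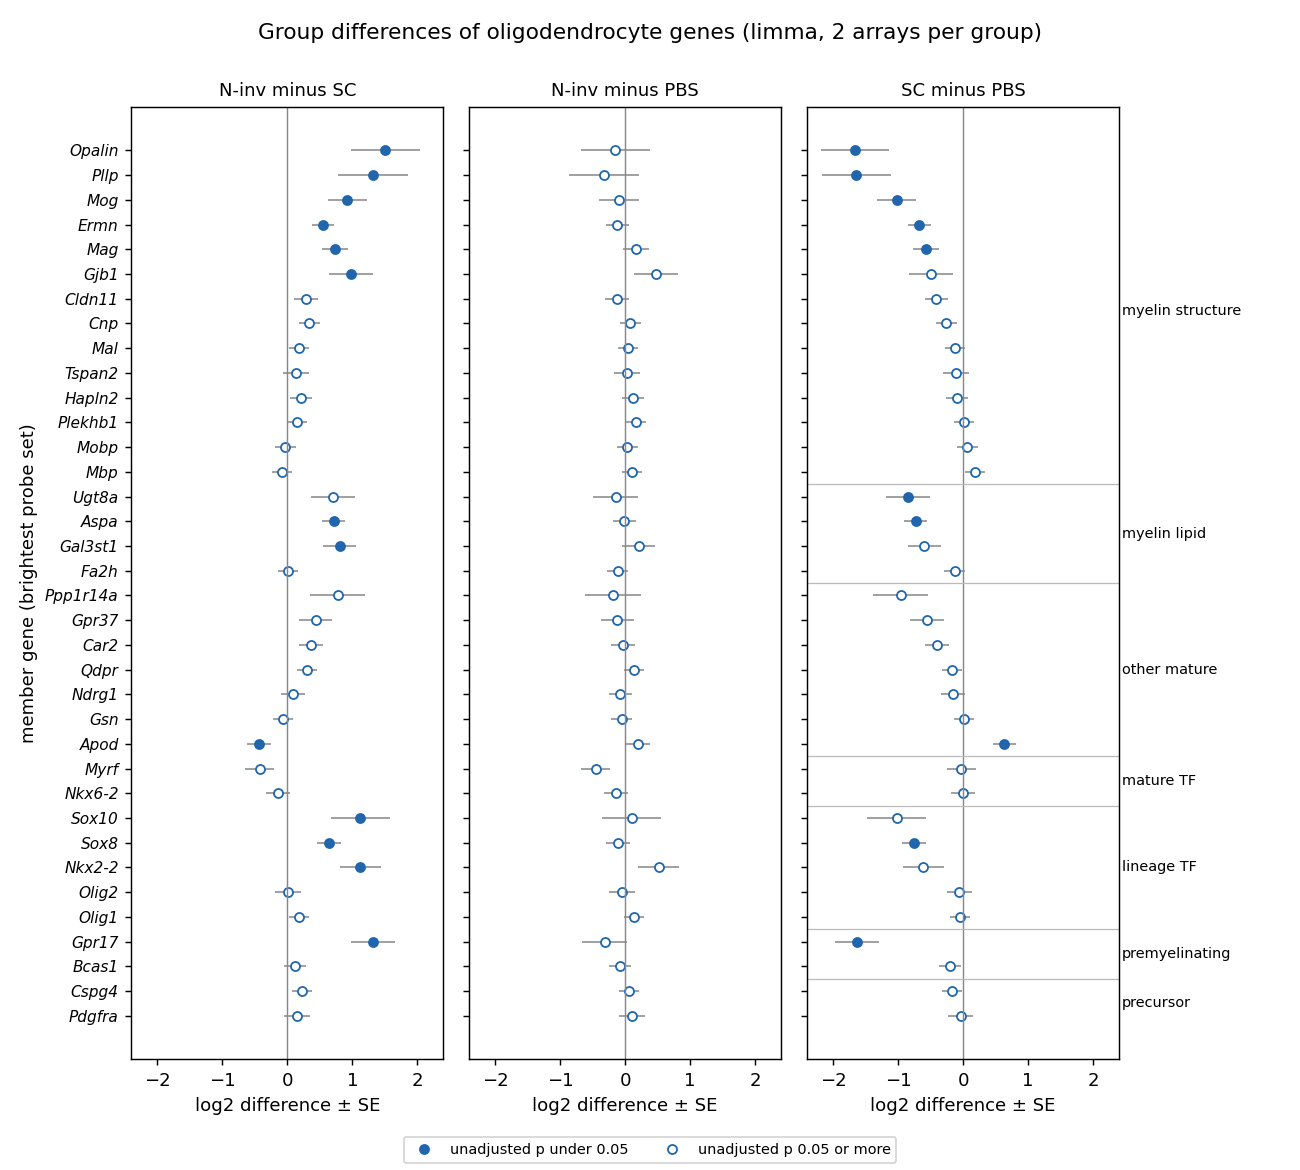
Log2 difference of each of the 36 genes with its SE (bars), in rows by role, for N-inv minus SC, N-inv minus PBS and SC minus PBS. Filled points have an unadjusted p under 0.05: 13, 0 and 10 genes in these panels, with 12 of the 13 higher in N-inv than in SC and 9 of the 10 lower in SC than in PBS.

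Among the structural genes of myelin, 11 of 14 were lower in SC than in PBS, with a median of -0.33, and 12 of 14 were higher in N-inv than in SC, with a median of 0.31. In N-inv minus PBS the median was 0.04. The largest differences were those of Opalin and Pllp. Opalin, a transmembrane protein of central but not peripheral myelin, read 1932 and 1090.4 on the N-inv arrays, 898.3 and 266.5 on the SC arrays and 1643 and 1586 on the PBS arrays. Both SC arrays were below the other 4, and SC 2 was far below SC 1. The difference was -1.66 ± 0.53 in SC minus PBS (adjusted p = 0.573, limma), or -0.83 without SC 2, and 1.51 ± 0.53 in N-inv minus SC, or 0.68 without SC 2. Pllp, plasmolipin, a tetraspan protein of myelin membrane, read 2942 and 2048 on the N-inv arrays, 1792 and 521.5 on the SC arrays and 3710.3 and 2559.9 on the PBS arrays. Again both SC arrays were lowest and unlike each other, and the difference in SC minus PBS was -1.64 ± 0.54, or -0.77 without SC 2 (adjusted p = 0.577 with all arrays, limma). Without SC 2, neither gene kept an unadjusted p under 0.05 in SC minus PBS or in N-inv minus SC.

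Mog, a glycoprotein of the outermost myelin lamella, read 3691 and 3120.5 on the N-inv arrays, 2464 and 1280.2 on the SC arrays and 3801 and 3474 on the PBS arrays. The SC arrays did not overlap with the others, and SC minus PBS was -1.02 ± 0.30 (adjusted p = 0.538, limma), or -0.56 without SC 2. Mag, a sialic acid binding glycoprotein on the inner surface facing the axon, read 11201 and 9248 on the N-inv arrays, 6989 and 5308 on the SC arrays and 9444 and 8725 on the PBS arrays. Its groups did not overlap between SC and PBS or between SC and N-inv, with -0.57 ± 0.20 in SC minus PBS and 0.74 ± 0.20 in N-inv minus SC, or -0.38 and 0.54 without SC 2. Ermn, ermin, a cytoskeletal protein of mature oligodendrocytes, read 14615 and 17114 on the N-inv arrays, 11667 and 10015 on the SC arrays and 16490.1 and 18051 on the PBS arrays, and both SC arrays were lowest, at -0.67 ± 0.18 relative to PBS, or -0.56 without SC 2. Gjb1, the gap junction protein connexin 32, read 1258 and 1441 on the N-inv arrays, 962.4 and 466.9 on the SC arrays and 1133 and 812.9 on the PBS arrays. Here SC 1 lay between the PBS arrays, and the difference was 0.98 ± 0.34 in N-inv minus SC but -0.50 ± 0.34 in SC minus PBS. Without SC 2, Gjb1 came to 0.47 in N-inv minus SC and 0 in SC minus PBS.

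The other structural genes, among them the brightest, differed by less between SC and PBS when all arrays were used. Mbp read 75195 and 80055 on the N-inv arrays, 80498 and 83563 on the SC arrays and 69486 and 75273 on the PBS arrays. By this probe set both SC arrays were above the other 4, by 0.18 ± 0.15 relative to PBS. The next brightest probe set of Mbp overlapped between N-inv and SC, and dimmer ones are given below. The highest intensity of any probe set on any array was 87346, close to these readings. Mobp, a small basic protein of compact myelin, read 59905 and 58244 on the N-inv arrays, 56371 and 64696 on the SC arrays and 54570.3 and 60921 on the PBS arrays, with overlapping groups and 0.07 ± 0.17 in SC minus PBS. Plekhb1, a membrane protein with a pleckstrin homology domain, read 46404 and 48794 on the N-inv arrays, 41912 and 44155 on the SC arrays and 40885 and 43950.1 on the PBS arrays, and the SC and PBS arrays overlapped. Cnp, a phosphodiesterase of uncompacted myelin, read 42207 and 40833 on the N-inv arrays, 35254 and 30563 on the SC arrays and 39045 and 39507 on the PBS arrays. Both SC arrays were lowest, at -0.26 ± 0.16 relative to PBS, or -0.16 without SC 2 (adjusted p = 0.755 with all arrays, limma). Mal, a tetraspan protein that sorts with myelin lipids, read 21249.5 and 21734 on the N-inv arrays, 18501 and 19622 on the SC arrays and 20205 and 21537 on the PBS arrays, with both SC arrays again lowest and a difference of -0.13. Cldn11, the claudin of myelin tight junctions, read 6617 and 5591 on the N-inv arrays, 4493 and 5518 on the SC arrays and 6549 and 6699 on the PBS arrays, and for this gene SC 1 rather than SC 2 was the lowest, with -0.41 ± 0.18 in SC minus PBS and -0.56 without SC 2. Tspan2, a tetraspanin, and Hapln2, a link protein of the matrix at nodes of Ranvier, had overlapping SC and PBS arrays and differences of -0.11 and -0.09, or -0.28 and -0.19 without SC 2.

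The 250 bases before the annotated start are shown for 2 of the genes that were lowest in SC, Opalin and Pllp, and for 2 bright genes that overlapped between SC and PBS, Mobp and Plekhb1. They come from RefSeq (GRCm38.p6), on the strand of the gene, at chr19:41077114-41077363 on the minus strand, chr8:94696243-94696492 on the minus strand, chr9:120149492-120149741 on the plus strand and chr7:100662395-100662644 on the minus strand. Capitals mark ACAAAG or its reverse complement CTTTGT, the core bound by SOX proteins such as Sox10.
Opalin: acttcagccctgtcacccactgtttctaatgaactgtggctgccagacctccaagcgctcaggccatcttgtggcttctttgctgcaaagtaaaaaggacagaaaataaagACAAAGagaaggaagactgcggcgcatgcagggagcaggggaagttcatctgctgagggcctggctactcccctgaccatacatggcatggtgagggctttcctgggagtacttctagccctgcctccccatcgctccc
Pllp: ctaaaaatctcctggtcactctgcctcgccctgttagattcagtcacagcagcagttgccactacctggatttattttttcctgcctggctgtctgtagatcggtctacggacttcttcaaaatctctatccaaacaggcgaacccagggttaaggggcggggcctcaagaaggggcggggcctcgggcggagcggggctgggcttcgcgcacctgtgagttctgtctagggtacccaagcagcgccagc
Mobp: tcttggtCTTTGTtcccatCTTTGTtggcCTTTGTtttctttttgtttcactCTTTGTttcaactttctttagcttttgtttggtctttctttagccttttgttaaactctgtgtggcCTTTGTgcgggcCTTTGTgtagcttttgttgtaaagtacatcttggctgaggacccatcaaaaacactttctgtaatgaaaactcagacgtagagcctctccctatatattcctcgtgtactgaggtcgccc
Plekhb1: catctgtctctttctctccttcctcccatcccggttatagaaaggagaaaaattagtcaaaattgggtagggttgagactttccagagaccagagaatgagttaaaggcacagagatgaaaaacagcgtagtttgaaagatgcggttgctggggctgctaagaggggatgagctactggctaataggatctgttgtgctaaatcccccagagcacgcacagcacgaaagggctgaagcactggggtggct
The Opalin window held 1 core, the Mobp window held 6, and Pllp and Plekhb1 had none. A window was found for 27 members, and 6 of them, or 22.2%, held the core on either strand, against 11.5% of the 10184 windows of genes above the filter and 16.5% of all 27025 windows. CAGCTG, an E-box that reads the same on both strands and is no part of the core, was in 3 of 27 windows, or 11.1%, against 12.8% of all. These matches describe letters in a window and not binding sites.

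**Figure D2:**
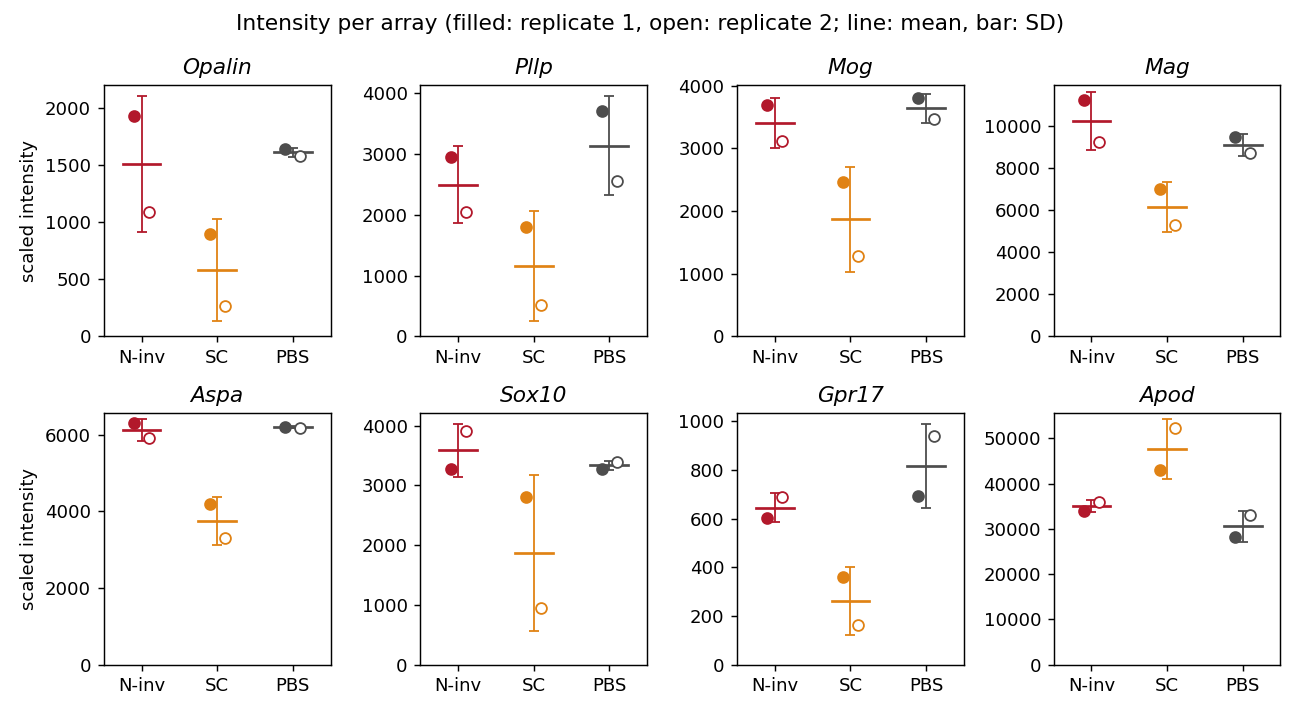
Scaled intensity on each of the 6 arrays (linear axes from 0) for Opalin, Pllp, Mog, Mag, Aspa, Sox10, Gpr17 and Apod, with filled points for replicate 1, open points for replicate 2, a line at the mean and bars for the SD (n = 2). SC 2 is the lowest array for all of these genes but Apod, for which it is the highest at 52295.

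The enzymes of myelin lipids were all lower in SC than in PBS, with both SC arrays below both PBS arrays for 4 of 4 genes, where 19.8% of all named genes were placed so, and a median of -0.66. Ugt8a, which makes galactosylceramide, read 16818 and 17322 on the N-inv arrays, 15325 and 7151 on the SC arrays and 17523 and 20444 on the PBS arrays. The low mean of the SC group came mostly from SC 2, and SC minus PBS was -0.85 ± 0.34, or -0.30 without SC 2. Aspa, aspartoacylase, which frees acetate for lipid synthesis from N-acetylaspartate, read 6314 and 5918 on the N-inv arrays, 4186 and 3309 on the SC arrays and 6209 and 6172 on the PBS arrays. Here both SC arrays were well below the others. Its difference was -0.73 ± 0.18 in SC minus PBS and 0.71 ± 0.18 in N-inv minus SC (adjusted p = 0.507 and 0.445, limma). These came to -0.56 and 0.54 without SC 2 and to -0.90 and 0.88 without SC 1. Gal3st1, which sulfates galactosylceramide to sulfatide, read 1528 and 1556 on the N-inv arrays, 1131 and 672.5 on the SC arrays and 1396 and 1272 on the PBS arrays, and was 0.80 ± 0.25 in N-inv minus SC and -0.60 ± 0.25 in SC minus PBS. Without SC 2 these came to 0.44 and -0.23, and without SC 1 to 1.17 and -0.96. Fa2h, which adds the hydroxyl group to the fatty acids of myelin lipids, read 5033 and 5419.8 on the N-inv arrays, 5506 and 4875 on the SC arrays and 5689 and 5651 on the PBS arrays, and its arrays differed by little in every group.

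Of the 7 measured genes with other functions in mature oligodendrocytes, 5 were lower in SC than in PBS. Apod, a lipid-binding lipocalin, went the opposite way. It read 34041 and 35996 on the N-inv arrays, 42973 and 52295 on the SC arrays and 28122 and 33021 on the PBS arrays. Both SC arrays were above the other 4, by 0.64 ± 0.18 relative to PBS (adjusted p = 0.521, limma), and N-inv minus SC was -0.44 ± 0.18. Without SC 2 these came to 0.50 and -0.30. Apod and Mbp were the 2 genes of the list for which both SC arrays exceeded all others, or 5.56%, against 6.21% of all named genes. Apod is also made by fibroblasts of the meninges. In the list of 10 meningeal and fibroblast genes, 7 were lower in SC than in PBS, with a median of -0.41, or -0.02 without SC 2 and -0.65 without SC 1, while Ptgds, prostaglandin D synthase, which oligodendrocytes make too, read 30576 and 35004 on the N-inv arrays, 50238 and 57858 on the SC arrays and 29578 and 29421 on the PBS arrays. The summed intensity of the 10 genes was 64199 and 70765 on the N-inv arrays, 85082 and 87241 on the SC arrays and 58730 and 66678 on the PBS arrays, but Ptgds carried the higher SC sum. The other 9 genes summed to 33623 and 35760 on the N-inv arrays, 34843 and 29384 on the SC arrays and 29152 and 37257 on the PBS arrays, and the part of these cells in the Apod result was not tested.

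Ppp1r14a, an inhibitor of myosin phosphatase, read 3242 and 2874 on the N-inv arrays, 2945 and 1065 on the SC arrays and 3694 and 3283 on the PBS arrays. SC 2 was well below every other array, SC 1 lay within the N-inv range, and the difference in SC minus PBS was -0.96 ± 0.43 (adjusted p = 0.653, limma), or -0.24 without SC 2. Gpr37, a G protein-coupled receptor of mature oligodendrocytes, read 8410.4 and 8159.8 on the N-inv arrays, 7939.5 and 4724 on the SC arrays and 9332 and 8704 on the PBS arrays, also lowest on SC 2, with -0.56 ± 0.25 in SC minus PBS and -0.18 without SC 2. Car2, carbonic anhydrase 2, read 25293 and 27006 on the N-inv arrays, 22755 and 18099 on the SC arrays and 24857 and 28818 on the PBS arrays, and both SC arrays were below the rest, with -0.40 ± 0.18 in SC minus PBS and -0.23 without SC 2. Qdpr, which regenerates the cofactor tetrahydrobiopterin, read 49951 and 49599 on the N-inv arrays, 41543 and 39105 on the SC arrays and 43108 and 47490.5 on the PBS arrays, with the SC arrays lowest at -0.17 ± 0.16 relative to PBS. By their brightest probe sets, Ndrg1, mutated in a human demyelinating neuropathy, and Gsn, the actin-severing protein gelsolin, had overlapping SC and PBS arrays. Their SC minus PBS differences were -0.16 and 0.01. A dimmer probe set of Ndrg1 read 2689 and 3576.5 on the SC arrays and 4197 and 4993.5 on the PBS arrays, at -0.56 ± 0.20. The 5 probe sets of Ndrg1 ran from -0.56 to -0.05, and the dimmer ones of Gsn had a median of -0.22.

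**Figure D3:**
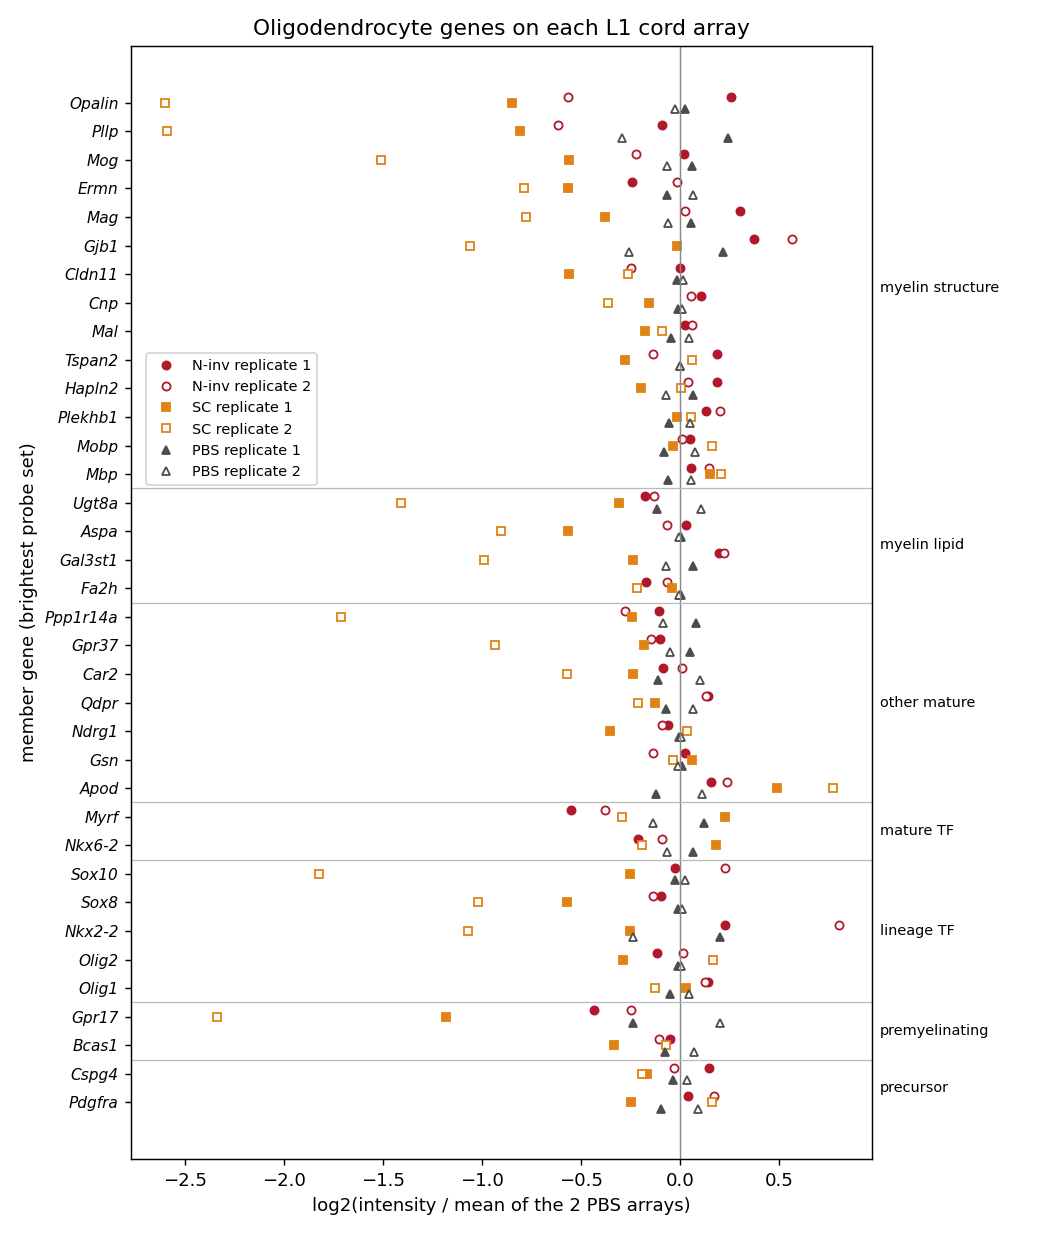
Intensity of each of the 36 genes on each array over the mean of the 2 PBS arrays (log2), with genes in rows by role, circles for N-inv, squares for SC, triangles for PBS, and open symbols for replicate 2. SC 2 is the lowest of the 6 arrays for 21 genes, and SC 1 for 8.

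The transcription factors differed among themselves. Sox10, required to switch on myelin genes, read 3272 and 3905 on the N-inv arrays, 2799 and 943.1 on the SC arrays and 3278 and 3391 on the PBS arrays. Both SC arrays were lowest, but SC 1 was close to the others and SC 2 was far below. The difference was 1.12 ± 0.45 in N-inv minus SC and -1.02 ± 0.45 in SC minus PBS (adjusted p = 0.546 and 0.653, limma), and these came to 0.35 and -0.25 without SC 2 and to 1.89 and -1.79 without SC 1. Sox8, a relative that acts beside Sox10, read 573.9 and 559.0 on the N-inv arrays, 412.7 and 302.9 on the SC arrays and 608.3 and 618.4 on the PBS arrays. Its SC arrays were both clearly lowest, at -0.75 ± 0.19 relative to PBS, or -0.54 without SC 2 and -0.96 without SC 1. Nkx2-2, a homeodomain factor of differentiating precursors, read 730.5 and 1085 on the N-inv arrays, 522.9 and 296.5 on the SC arrays and 717.6 and 528.7 on the PBS arrays. The N-inv arrays were above all others and the SC arrays below all others, but N-inv 1 and SC 1 each lay close to a PBS array. The difference was 1.12 ± 0.32 in N-inv minus SC and 0.51 ± 0.32 in N-inv minus PBS (adjusted p = 0.46 and 1, limma). SC minus PBS was -0.61 ± 0.32. Without SC 2, N-inv minus SC was 0.74 and SC minus PBS was -0.23.

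The bHLH factors that specify the lineage had small differences. Olig1 read 22890 and 22688 on the N-inv arrays, 21239.9 and 19018 on the SC arrays and 20097 and 21451 on the PBS arrays, and Olig2 read 1082 and 1184 on the N-inv arrays, 961.2 and 1318 on the SC arrays and 1166 and 1178 on the PBS arrays. Their SC and PBS arrays overlapped, with -0.05 and -0.06 in SC minus PBS, or 0.03 and -0.28 without SC 2. Myrf, which drives the myelin genes in differentiated cells, read 1854 and 2088 on the N-inv arrays, 3179 and 2218 on the SC arrays and 2960.5 and 2473 on the PBS arrays. Both N-inv arrays were below the other 4, and N-inv minus PBS was -0.46 ± 0.22 (adjusted p = 1, limma). This was the most negative difference among the 36 genes in that comparison. In N-inv minus SC, Myrf was at -0.43 ± 0.22, or -0.68 without SC 2 and -0.17 without SC 1. Nkx6-2, a homeodomain factor of myelinating oligodendrocytes, read 492.1 and 536.4 on the N-inv arrays, 646.8 and 500.1 on the SC arrays and 596.4 and 544.8 on the PBS arrays, a spread of 1.31-fold between the highest and lowest array.

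The premyelinating and precursor genes also split. Gpr17, a receptor carried for a short time by differentiating precursors, read 604.1 and 687.6 on the N-inv arrays, 359.7 and 161.9 on the SC arrays and 693.7 and 939.2 on the PBS arrays. The groups did not overlap between SC and either of the others. It was -1.63 ± 0.34 in SC minus PBS and 1.32 ± 0.34 in N-inv minus SC (adjusted p = 0.507 and 0.445, limma), or -1.11 and 0.80 without SC 2. Bcas1, an early marker of myelinating cells, read 33702 and 32421 on the N-inv arrays, 27725 and 33229 on the SC arrays and 33136 and 36646 on the PBS arrays, and SC 2 lay within the PBS range while SC 1 was lowest, with -0.20 ± 0.17 in SC minus PBS and -0.33 without SC 2. Pdgfra, the receptor for platelet-derived growth factor on precursors, read 2854 and 3128 on the N-inv arrays, 2342 and 3113 on the SC arrays and 2597 and 2959.5 on the PBS arrays, with overlapping groups and -0.04 ± 0.20 in SC minus PBS, or -0.24 without SC 2. Cspg4, the NG2 proteoglycan, which pericytes carry too, read 550.3 and 486.2 on the N-inv arrays, 442.9 and 434.8 on the SC arrays and 484.5 and 508.8 on the PBS arrays, with both SC arrays below the others but -0.17 ± 0.16 relative to PBS. These are the values of the brightest probe sets. The other probe set of each gene above the filter gave larger differences. In SC minus PBS these were -0.35 ± 0.24 for Pdgfra and -0.60 ± 0.35 for Cspg4, and in N-inv minus SC 0.74 and 0.50. That of Cspg4 read 483.2 on SC 1, within the PBS range, and 206.9 on SC 2. That of Pdgfra was dim, at 116.2 and 115.6 on the SC arrays, below the filter's cutoff of 147.5. It read 274.5 and 160.0 on the N-inv arrays and 145.3 and 163.8 on the PBS arrays. The estimates from the probe sets of these precursor genes thus differed, but their standard errors are wide. Whether the probe sets disagree was not tested.

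For N-inv against PBS, both N-inv arrays were above both PBS arrays for 8 of 36 genes and below them for 9, where 25.2% and 12.6% of all named genes were so placed. The largest positive differences were those of Nkx2-2, 0.51 ± 0.32, and Gjb1, 0.48 ± 0.34. In the 10 genes averaging over 20000 the N-inv minus PBS differences ran from -0.08 to 0.20, and over the 36 genes from -0.45 for Myrf to 0.51 for Nkx2-2.

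**Figure D4:**
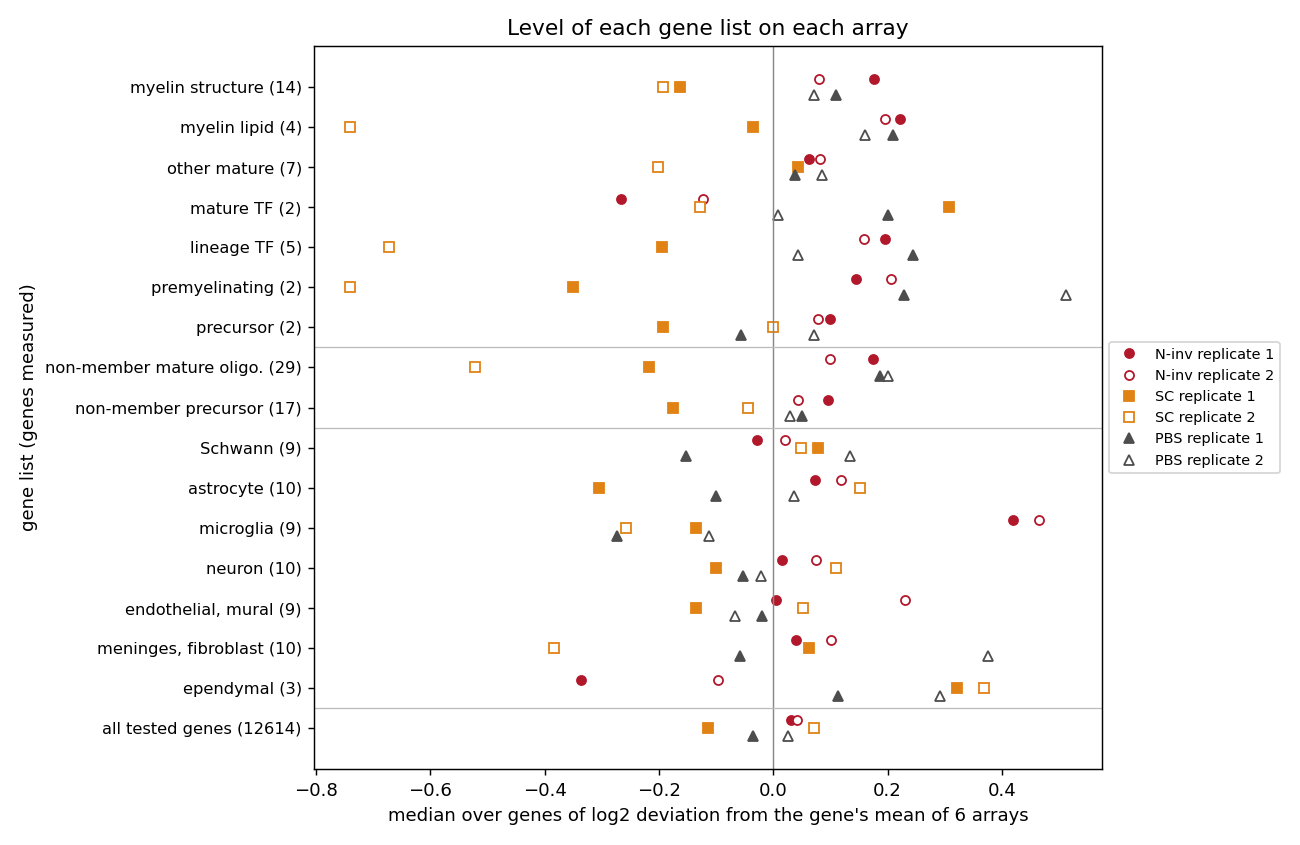
Median over the genes of each list of the log2 deviation from the gene's mean over 6 arrays, by array, with the number of measured genes in parentheses. The 14 structural genes lie at -0.16 on SC 1 and -0.19 on SC 2, against 0.08 to 0.18 on the N-inv arrays and 0.07 to 0.11 on the PBS arrays, and all 12614 named genes lie at -0.12 on SC 1 and 0.07 on SC 2.

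SC 2 was below SC 1 for 24 of 36 genes, or 66.7%, although it was below for only 30.9% of all named genes. SC 1 exceeded SC 2 by more than 1.5-fold for 11 genes, or 30.6%, against 5.06% of all. Counted in either direction, the SC arrays differed by more than 1.5-fold for the same 11 genes and for 18.2% of all named genes. Within the other groups, the N-inv arrays differed by more than 1.5-fold for 1 gene, Opalin, and the PBS arrays for 0. Against the PBS mean, Opalin stood at 55.6% on SC 1 and 16.5% on SC 2, Pllp at 57.2% and 16.6%, and Sox10 at 83.9% and 28.3%. Aspa stood at 67.6% and 53.5%. The 3'/5' ratio of Actb was also highest on SC 2, at 4.70, while that of Gapdh was 3.38 on SC 2 as on N-inv 2 and highest on SC 1, at 3.52. Their part in these values was not tested.

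The differences varied with the level of signal. In SC minus PBS, the median was -0.55 for the 10 genes averaging under 2000, -0.56 for the 16 genes between 2000 and 20000, and -0.09 for the 10 genes over 20000. All named genes in these ranges had medians of -0.03, -0.01 and 0.10. Probe sets of the same gene were compared as well. Of 15 genes with more than 1 probe set above the filter, all probe sets had the same sign in 12. The median of the others lay below the brightest in 11, for Mbp by little, and above it in Ermn, Gjb1, Ugt8a and Sox10. The same counts were not made over all named genes. Of the 67 probe sets, 57 were below 0 in SC minus PBS, where 53.2% of all named genes were, by their brightest probe set. At an unadjusted p under 0.05, 14 were lower and 1 higher, where 7.92% of all probe sets passed in either direction. Of all named genes, 4.47% were lower and 2.23% higher at that threshold. Probe sets of 1 gene are counted apart here, 8 of them for Mbp, and these counts were not made without SC 2.

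Mbp had 8 probe sets above the filter. The 5 brightest lay between 0.16 and 0.23 in SC minus PBS, 2 dimmer ones lay at -0.47 and -0.80, and the dimmest lay at 0.04. For Mobp the brightest was at 0.07 and the others between -0.42 and -0.31. Cnp was -0.26 by its brightest probe set and -0.63 and -0.41 by the others, and Qdpr was -0.17 and -0.60. Sox10 was -1.02 ± 0.45 by its brightest and -0.18 ± 0.16 by its other probe set, and whether these disagree was not tested. Which transcripts each probe set reads was not analysed here.

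**Figure D5:**
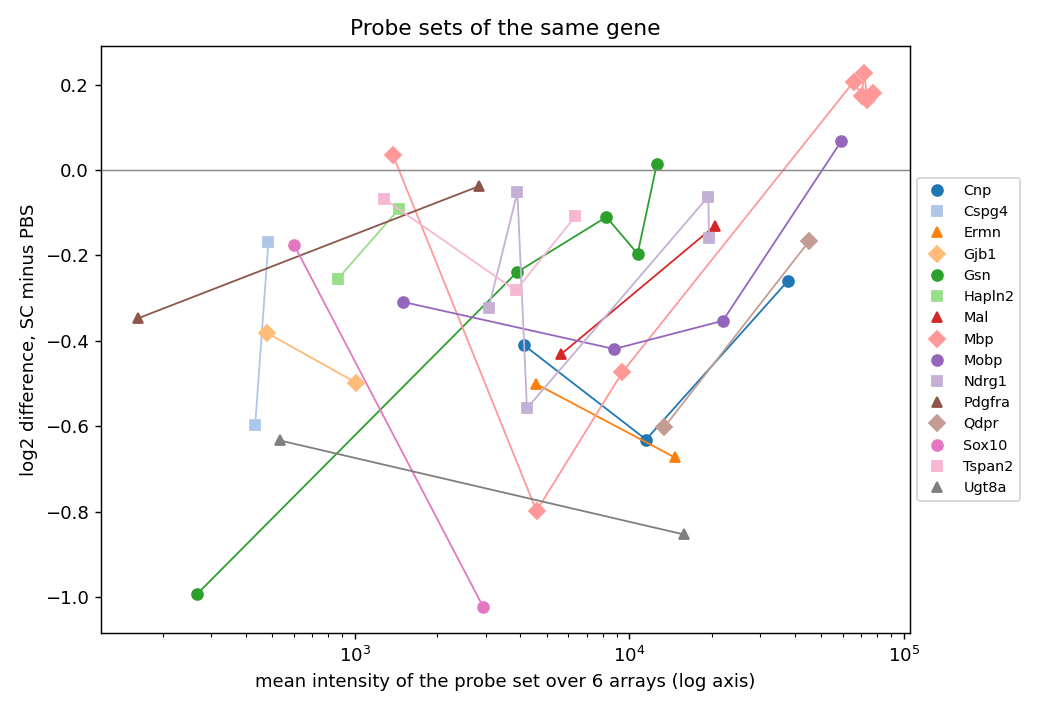
SC minus PBS log2 difference of each probe set above the filter against its mean intensity over 6 arrays (log axis), for the 15 genes with more than 1 such probe set, with lines joining probe sets of a gene. The 5 brightest of Mbp lie between 0.16 and 0.23, while the 2 at -0.47 and -0.80 are dimmer.

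Oligodendrocyte genes outside the list were read for comparison. Of 29 measured genes of mature oligodendrocytes, 26 were lower in SC than in PBS, with a median of -0.50, and 15 had an unadjusted p under 0.05, all lower, where the background is 4.47%. Without SC 2 there were 11 lower, where 9.67% of all named genes were, and without SC 1 there were 17 lower, where 6.14% were, and 1 higher. In N-inv minus SC, 14 of 29 were higher at that threshold, against 6.08% of all named genes. Without SC 2 there were 8 higher, against 12.9%, and without SC 1 there were 18, against 7.60%, and 1 lower. In N-inv minus PBS the median was -0.03, and 1, Ninj2, was lower at that threshold. The smallest p in SC minus PBS were those of Nipal4, a magnesium transporter family member, Klk6, a secreted serine protease, Il33, a nuclear cytokine, and Pls1, an actin-bundling plastin. Nipal4 read 565.2 and 584.9 on the N-inv arrays, 306.8 and 265.1 on the SC arrays and 716.9 and 616.7 on the PBS arrays, and Klk6 read 3826 and 3269.8 on the N-inv arrays, 2437 and 1662 on the SC arrays and 4727 and 4214 on the PBS arrays. For both genes SC 1 as well as SC 2 was below all 4 other arrays, with -1.15 ± 0.17 and -1.14 ± 0.22 in SC minus PBS (adjusted p = 0.492 and 0.507, limma). Il33 and Pls1 were -1.24 ± 0.27 and -0.88 ± 0.20. Without SC 2, Nipal4, Klk6, Il33 and Pls1 came to -1.05, -0.87, -0.97 and -0.96.

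Of 17 further genes of precursors and early differentiation, 14 were lower in SC than in PBS, with a median of -0.22. Of all named genes, 53.2% were lower. At an unadjusted p under 0.05 there were 2, or 11.8%, both lower, where the background is 4.47%. They were Sox6 at -0.63 and Cacng4 at -0.69, or -0.41 and -0.58 without SC 2. Cacng4 was also lower in N-inv than in PBS, at -0.82 ± 0.28, and its PBS arrays read 1104.1 and 1954.7. Sox6 keeps precursors from differentiating, and Cacng4 is a subunit of AMPA receptors. Of 9 Schwann cell genes, 4 were lower in SC than in PBS, with a median of 0.05. Pmp22, a protein of peripheral myelin, read 23496 and 28000.3 on the N-inv arrays, 25059.9 and 26209.5 on the SC arrays and 22787 and 26882 on the PBS arrays. Pmp2, a fatty acid binding protein of peripheral myelin, read 846.3 and 548.1 on the N-inv arrays, 375.1 and 35.5 on the SC arrays and 929.9 and 1333 on the PBS arrays, and was -2.87 ± 0.79 in SC minus PBS, or -1.51 without SC 2, whose reading lay below the filter's cutoff of 147.5.

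Lists for other cell types showed how far the arrays differed beyond oligodendrocytes. In SC minus PBS the median was -0.03 over 10 astrocyte genes and 0.03 over 10 neuronal genes, with 0 of either list at an unadjusted p under 0.05. These medians average SC arrays that lay on opposite sides: without SC 2 they were -0.32 and -0.06, and without SC 1 they were 0.14 and 0.18. Over all named genes the median was -0.11 without SC 2 and 0.08 without SC 1. Without SC 2 the astrocyte median was thus further below 0 than that of the mature oligodendrocyte genes of the list, -0.19. Over 9 microglial genes the median was -0.18, or 0.18 without SC 2 and -0.02 without SC 1. Over 9 endothelial and mural genes it was 0.03, or -0.16 without SC 2 and -0.01 without SC 1, and over 3 ependymal genes it was 0.14. In N-inv minus PBS, both N-inv arrays were above both PBS arrays for 9 of 9 microglial genes, against 25.2% of all named genes. The 9 microglial genes summed to 32128 and 27480 on the N-inv arrays and 19962 and 20609 on the PBS arrays. Csf1r carried most of these sums, at 21177 and 16840 on the N-inv arrays and 13313 and 13660 on the PBS arrays. The mature oligodendrocyte genes of the list summed to 481830 and 483990 on the N-inv arrays, 445860 and 441590 on the SC arrays and 451650 and 482030 on the PBS arrays, sums that rest mostly on the brightest genes.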

How the data were processed

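RNA of 6 arrays, 2 each for N-inv, SC and PBS, was extracted with TRIzol, and 100 ng was labelled by a 2-cycle protocol and hybridised to Affymetrix 3' arrays, per the labels' protocols. The deposited table holds linear probe set intensities, scaled per array to a 2% trimmed mean of 1000. How probes were summarised was not given in the sources used.

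Of 45101 probe sets, 64 controls were left out. The platform annotation gave 34945 of the other 45037 probe sets 1 gene symbol, 932 several and 9160 none, and those with several were tested but not named. Arrays were brought to the median 255.8 and put on the scale log2(intensity + 25.6), with a pseudocount of that median divided by 10. Probe sets with a mean log2 value above the 40th percentile, an intensity of 147.5, were kept (27022). All were tested in 1 model over 6 arrays by lmFit and eBayes of limma 3.58.1 (R 4.3.3; two-sided; residual degrees of freedom 3, prior 3.72), with Benjamini-Hochberg adjustment over all of them. Exact tests of 2 arrays against 2 cannot go below 0.333 and were not used. The number of arrays limits the precision.

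Members and lists were chosen with earlier results of these data known. Every member may be named, with values for each array where an unadjusted p was under 0.05, where groups did not overlap, and for the main lineage genes. Of each other list, up to 4 genes with the smallest p per comparison may be named. Ptgds, Pmp22, Csf1r, Eif2s3y and Xist were chosen after their values were seen. Alternatives were quantile normalization, no scaling, other pseudocounts and filters, the mean of a gene's probe sets, an intensity trend, a replicate block, only the groups compared, and leaving out each array. Scripts were tested on simulated data.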

Additional observations from a re-analysis of the deposited data

How the results depend on the processing

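No member passed an adjusted p of 0.05 (limma) in any alternative run. Member counts at an unadjusted p under 0.05 ranged, on leaving out 1 array, from 0 to 1 in N-inv minus PBS, 5 to 18 in N-inv minus SC and 4 to 17 in SC minus PBS, while the share of all named genes in these fits ran from 2.29% to 5.87%, 4.13% to 15.4% and 3.81% to 14.7%. In the same order the mature medians ranged from -0.06 to 0.03, 0.24 to 0.35 and -0.28 to -0.19, and the precursor and lineage medians from -0.03 to 0.09, 0.21 to 0.35 and -0.27 to -0.14. In N-inv minus PBS the count was 1, Myrf, or 2.78%, with an intensity trend, where 3.20% of all named genes passed. With only the groups compared it was also 1, Myrf, against 5.89% of all named genes. In that comparison the mature median was -0.13 after quantile normalization, and the precursor median was -0.02 over the mean of all probe sets. In N-inv minus SC the count was 8 as deposited and 8 with no filter, where 8.24% and 6.57% of all named genes passed. Its mature and precursor medians were 0.25 and 0.17 as deposited and 0.37 and 0.44 over the mean of all probe sets, and the precursor median was 0.18 after quantile normalization. In SC minus PBS the count was 16 with a pseudocount of the median divided by 2, 16 with a filter at the 60th percentile and 17 with an intensity trend, where 7.08%, 7.61% and 7.62% of all named genes passed. Its mature and precursor medians were -0.41 and -0.32 after quantile normalization and -0.40 and -0.38 over the mean of all probe sets. The cause of these shifts was not tested.

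The replicate numbers did not pair the arrays: same-numbered arrays deviated from their group means with correlations of -0.032 (N-inv and SC), 0.010 (N-inv and PBS) and 0.041 (SC and PBS). With the replicate number as a block, 0 members had an unadjusted p under 0.05 in N-inv minus PBS, 12 in N-inv minus SC and 11 in SC minus PBS, where 3.42%, 8.21% and 6.52% of all named genes had one. Members with an unadjusted p under 0.05 kept it, over the 10 settings other than leaving out 1 array, in 108 of 130 checks in N-inv minus SC and 92 of 100 in SC minus PBS, and on leaving out 1 array in 49 of 78 and 46 of 60. None of these changed sign. Of the other members, 14 of 36, 10 of 23 and 13 of 26 changed sign in at least 1 setting in N-inv minus PBS, N-inv minus SC and SC minus PBS. The values of the other lists and their genes without an SC array, and the sum without Ptgds, were added after seeing the data.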
